A study of Mus musculus with 6 samples.

Results

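The tripartite motif (TRIM) family of ubiquitin ligases was described by RNA-seq in 4T1 cells, a mouse mammary carcinoma line, with and without the ubiquitin-activating enzyme gene Uba6. Members were all protein-coding genes of the deposited expression table whose symbol is Trim followed by a number, which gave 48 genes of 19255. The sgUba6 group was 3 libraries of Uba6-null 4T1 cells made with a Cas9 vector (lentiCRISPR v2) carrying a guide against Uba6. The sgCtrl group was 3 libraries of 4T1 cells titled NTC and labelled wild type for Uba6, which the paper names sgCtrl control cells. The methods describe lentiviral delivery of the guides and puromycin selection, while the treatment note in the labels names the Uba6 guide for all 6 samples, the controls included. The groups were therefore taken from the sample titles, KO and NTC. The sources used here do not say whether the Uba6-null cells are 1 clone or a pool, nor from what cultures each set of 3 libraries was grown. A general statement of the study says that its results were biologically repeated, without naming these libraries, so p-values measure only the spread between them, part of which may be technical.

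A TRIM protein carries, from its N terminus, a RING finger that binds a ubiquitin-loaded E2 enzyme, 1 or more B-box zinc fingers and a coiled coil through which it dimerises. The C-terminal domain differs between members and sets what the ligase binds: a B30.2/SPRY domain in most, and a PHD finger with a bromodomain, NHL repeats, a COS box or other folds in the rest. Many SPRY members restrict viruses or tune innate immune signalling and are themselves induced by interferon, while the PHD-bromodomain members act in the nucleus on chromatin. Ubiquitin reaches these ligases from an E1 enzyme through the E2. UBA6 is an E1 that also activates the ubiquitin-like modifier FAT10, and UBA1 is the other ubiquitin E1.

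The values were FPKM, which scale fragments by transcript length and by the mapped fragments of the library, and no read counts were used here, so the depth behind a value is unknown. FPKM summed to 352535 to 355425 in sgUba6 libraries and 358916 to 362762 in sgCtrl libraries. Uba6 itself (chr5:86109287-86172803, minus strand, GRCm38) had 10.9, 12.1 and 12.03 FPKM in sgUba6 libraries, against 16.4, 16.4 and 17.02 FPKM in sgCtrl libraries (log2 fold change -0.49, SE 0.06, limma adjusted p = 0.000601), so its transcript was lower in every sgUba6 library and still present. An edit need not remove a transcript, so these levels check the labels only by their direction. The epithelial markers that fit 4T1 cells (Cdh1, Epcam, Krt8, Krt18, Krt14) summed to 1983 to 2004 FPKM in sgUba6 and 2037 to 2079 FPKM in sgCtrl, with Epcam higher (log2 fold change 0.90), Krt14 (-0.29) and Krt8 (-0.22) lower, and Cdh1 and Krt18 not passing the test. The 3 leukocyte markers that were listed summed to 17.1 to 18.5 FPKM in sgUba6 and 7.73 to 8.65 FPKM in sgCtrl, most of it the lysosomal gene Cd68 (log2 fold change 1.02, higher). The macrophage receptor gene Csf1r was also higher (1.51 FPKM in sgUba6 and 0.434 FPKM in sgCtrl on average, log2 fold change 1.09, adjusted p = 0.000736), while the pan-leukocyte marker Ptprc averaged 0.0103 FPKM in sgUba6 and 0.0065 FPKM in sgCtrl. The 4 fibroblast and endothelial markers listed summed to 5.51 to 6.72 FPKM in sgUba6 and 3.04 to 3.21 FPKM in sgCtrl, with Pdgfra (log2 fold change 0.85) and Col1a1 (0.83) higher and the endothelial marker Pecam1 and the fibroblast marker Dcn below the filter. In bulk RNA, fewer cells of a type and less RNA per cell cannot be told apart. The part of these marker shifts in the TRIM values was not tested.

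More TRIM genes were higher than lower in Uba6-null cells. Of the 48 members, 35 reached 0.5 FPKM in at least 3 of the 6 libraries and were tested, with limma on log2(FPKM + 0.5) and Benjamini-Hochberg adjustment over all 12190 genes tested. At an adjusted p under 0.05, 16 members were higher in sgUba6, 7 were lower and 12 did not pass the test. The called members were 65.7% of those tested, against 47.4% of all genes tested (24.7% higher and 22.7% lower). Over the 11063 tested protein-coding genes, the class of every member, 49.7% were called. The median log2 fold change was 0.22 over the tested members and 0.01 over all genes tested. Without Trim30a, which passed the filter only through the sgUba6 libraries, the median of the members was 0.19. In 17 members every sgUba6 library lay above every sgCtrl library and in 7 every one lay below, 68.6% together. Of all genes tested, 57.6% had groups that did not overlap (29.9% above and 27.7% below), and of tested protein-coding genes 60%. For calls of at least 0.5 on the log2 scale the share over all genes tested was 18.2%. The RNF genes, another group of RING-finger ligases named by symbol, had 17 higher and 14 lower of 64 tested (48.4%), with a median log2 fold change of 0.06. Most shifts were modest in size: 11 called members changed by at least 0.5 on the log2 scale, 8 up and 3 down, and only Trim30a changed by at least 1. Fold changes on this scale understate the change of genes with low FPKM. Summed over all members, TRIM transcripts came to 575 to 578 FPKM in sgUba6 and 559 to 565 FPKM in sgCtrl, so the total moved far less than single members did.

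**Figure D1:**
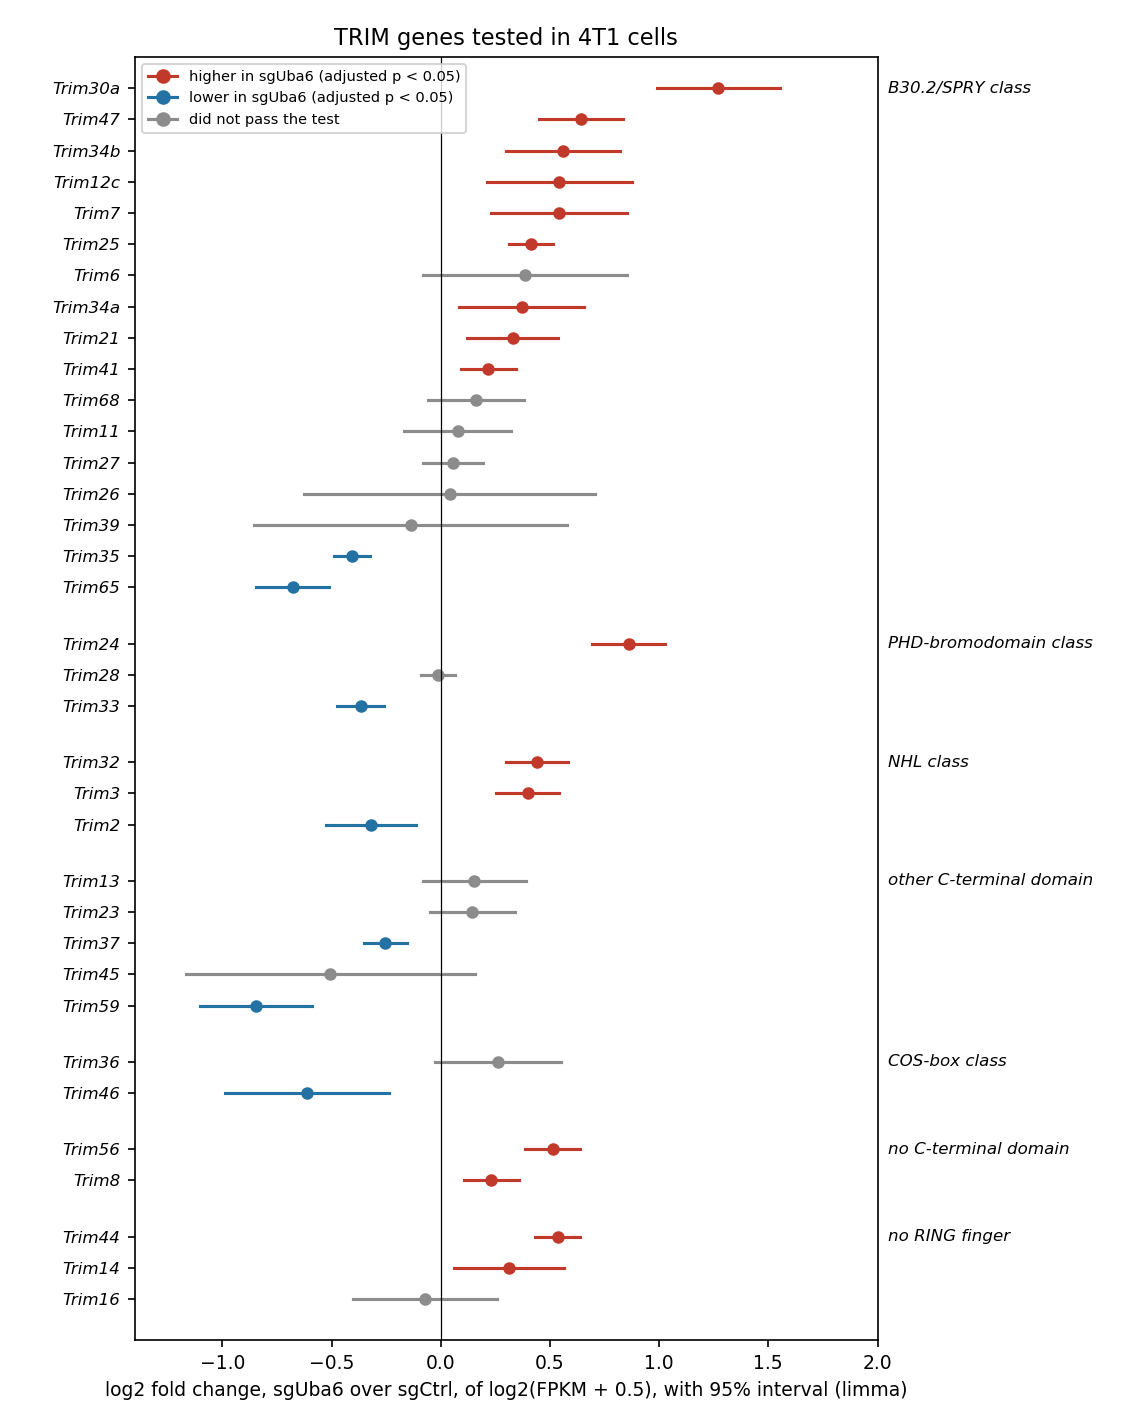
The x axis gives the log2 fold change (sgUba6 over sgCtrl) of log2(FPKM + 0.5), and each row is 1 of the 35 tested TRIM genes. Genes are grouped by C-terminal class or by the lack of a RING finger, with a point for the estimate and a bar for its 95% interval from limma. Red marks the 16 genes higher in sgUba6, blue the 7 lower, and grey the 12 that did not pass the test. The widest intervals belong to Trim39, Trim26 and Trim45.

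The 3 expressed PHD-bromodomain members, the TIF1 group of chromatin regulators, each took a different course. Trim24 (TIF1-alpha, a coregulator of nuclear receptors that reads histone H3 tails, chr6:37870811-37966296) had 9.97, 11.3 and 10.7 FPKM in sgUba6 libraries, against 5.41, 5.98 and 5.54 FPKM in sgCtrl libraries. Its groups lay far apart, with a log2 fold change of 0.86 (SE 0.07, adjusted p = 0.000127), the largest rise among members above 2 FPKM on average in both groups. Trim33 (TIF1-gamma, a regulator of SMAD signalling, chr3:103279293-103358775) had 19.0, 18.1 and 19.2 FPKM in sgUba6 libraries, against 24.7, 24.3 and 24.0 FPKM in sgCtrl libraries, a log2 fold change of -0.37 (SE 0.04, adjusted p = 0.00068). Trim28 (KAP1, the corepressor that KRAB zinc-finger proteins bring to retroelements, chr7:12999114-13031035) was the most abundant TRIM transcript, with 119.6, 114.6 and 118.2 FPKM in sgUba6 libraries, against 116.8, 118.3 and 120.0 FPKM in sgCtrl libraries. Its groups overlapped, and the log2 fold change of -0.01 had a 95% interval of -0.09 to 0.07, which covers only the spread between these libraries. The Trim28 estimate was 0.056 with quantile normalization and -0.033 with median-of-ratios scaling. The ratio of Trim24 to Trim33 FPKM was 0.525, 0.625 and 0.559 in sgUba6 libraries and 0.219, 0.246 and 0.231 in sgCtrl libraries, while the sum of the 3 genes was 144 to 149 FPKM in sgUba6 and 147 to 150 FPKM in sgCtrl. Parts of the Trim24 transcripts, up to 398 bases, match exons of 7 other genes at 95% identity or more, so some of its reads could have been shared. The fourth member of the class, Trim66, stayed below the filter.

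**Figure D2:**
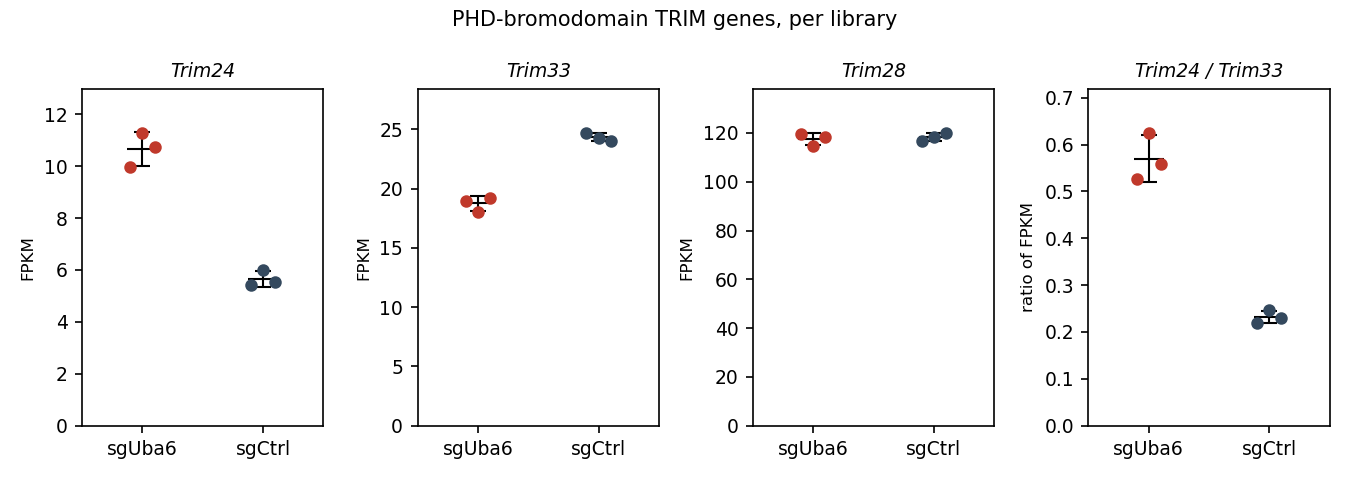
The y axes give FPKM of Trim24, Trim33 and Trim28 and the ratio of Trim24 to Trim33, with sgUba6 libraries in red and sgCtrl libraries in dark blue (3 each), the mean as a long bar and the SD as whiskers, each axis starting at 0. Trim24 sits at 9.97 to 11.3 FPKM in sgUba6 and at 5.41 to 5.98 FPKM in sgCtrl, Trim33 is lower in sgUba6, and the Trim28 points overlap.

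Of 8 genes for proteins that work with TRIM28 in silencing, 2 were higher, 4 lower and 2 did not pass the test (75% called, against 47.4% of all genes tested), with a median log2 fold change of -0.14. Atf7ip, which stabilises the histone methyltransferase SETDB1, was higher (18.6 FPKM in sgUba6 and 12.4 FPKM in sgCtrl on average, log2 fold change 0.57, SE 0.12, adjusted p = 0.00702). Setdb1, which methylates histone H3 lysine 9, was lower (16.8 FPKM in sgUba6 and 24.4 FPKM in sgCtrl, log2 fold change -0.52, SE 0.05, adjusted p = 0.000232), and so was Cbx5, the gene of HP1-alpha (45.7 FPKM in sgUba6 and 55.1 FPKM in sgCtrl, log2 fold change -0.27, SE 0.04, adjusted p = 0.00176).

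Each member was put in 1 class only. The SPRY class here leaves out genes filed as COS-box (such as Trim36 and Trim46) or as lacking a RING finger (such as Trim14 and Trim16), whatever their C-terminal domain. In the SPRY class so defined 25 were listed and 17 tested, with 9 higher, 2 lower and 6 that did not pass the test. That is 64.7% called, close to the 65.7% of the whole family, against 47.4% of all genes tested. The median log2 fold change of the class was 0.33, and 0.27 without Trim30a. Another list, of TRIM genes that interferon is known to induce, was written with knowledge of earlier results of these data. It was not confined to the SPRY class, since Trim56 and Trim14 are filed elsewhere. It counted Trim6, Trim34a, Trim34b, Trim12c and Trim30a, from a single cluster on chromosome 7, as separate genes. In all 14 members were listed and 10 tested. Of those 10, 8 were higher (Trim25, Trim56, Trim14, Trim21, Trim12c, Trim34b, Trim34a, Trim30a) and none was lower, against 24.7% higher and 22.7% lower over all genes tested, with a median log2 fold change of 0.40, while Trim26 and Trim6 did not pass the test. Trim30a could be tested only because of its level in the sgUba6 libraries, and without it the count was 7 higher of 9 and the median 0.39. Trim25, which ubiquitinates the RNA sensor RIG-I, was the most abundant of them, with 38.7, 36.9 and 37.5 FPKM in sgUba6 libraries, against 27.2, 28.5 and 28.8 FPKM in sgCtrl libraries (log2 fold change 0.41, SE 0.04, adjusted p = 0.000342). Every sgUba6 library was well above every sgCtrl library. Trim56, an antiviral ligase with no recognised C-terminal domain, had 25.7, 23.2 and 25.5 FPKM in sgUba6 libraries, against 17.2, 16.97 and 17.4 FPKM in sgCtrl libraries (log2 fold change 0.51, SE 0.05, adjusted p = 0.000342). Trim21, a cytosolic receptor for antibody-coated particles, was given per library after its values were seen. It had 3.85, 4.76 and 4.21 FPKM in sgUba6 libraries, against 3.299, 3.24 and 3.32 FPKM in sgCtrl libraries, a log2 fold change of 0.33 (SE 0.09, adjusted p = 0.0197). The Trim21 call was lost without sgUba6 library 2 (adjusted p = 0.0544), sgUba6 library 3 (0.0514) or sgCtrl library 2 (0.0557), though the groups did not overlap.

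Trim14, which lacks a RING finger and serves as an adaptor at the mitochondrial antiviral protein MAVS, had 16.0, 14.2 and 16.3 FPKM in sgUba6 libraries, against 12.4, 14.2 and 10.8 FPKM in sgCtrl libraries. The groups touched at library 2 of each, and the log2 fold change of 0.31 (SE 0.11) passed the test narrowly (adjusted p = 0.0483). Without sgUba6 library 1, sgUba6 library 3, sgCtrl library 1 or sgCtrl library 3 the Trim14 call was lost, with adjusted p between 0.102 and 0.131. Its exons share 1356 bases, 31.3% of their length, with Nans on the opposite strand, a sialic acid synthesis gene at 38.2 FPKM in sgUba6 and 34.0 FPKM in sgCtrl that was also higher (log2 fold change 0.16). The sources name both a kit that keeps strand and 1 that is not described as doing so, so reads of Trim14 and Nans may not be separable.

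Of the SPRY members analysed, 8 lie together on chromosome 7, in a cluster of 289 kb from 104218793 to 104507849 (GRCm38) that has expanded in the mouse around Trim5, the gene whose primate counterpart restricts retroviral capsids. Their SPRY relatives Trim12a and Trim30b were not among the genes analysed. Of these 8 genes 5 were tested, and 4 were higher in sgUba6 (24.7% of all genes tested were), none was lower and Trim6 did not pass the test. The 4 include Trim30a, without which 3 of 4 were higher, and the near-copies Trim34a and Trim34b. Trim30a, a mouse gene known to restrain Toll-like receptor signalling, had 1.29, 1.35 and 1.63 FPKM in sgUba6 libraries, against 0.229, 0.317 and 0.340 FPKM in sgCtrl libraries. That was the largest change of any member, with a log2 fold change of 1.27 (SE 0.12, adjusted p = 0.000223). It passed the filter only through the sgUba6 libraries, so it could hardly have been tested without being higher there, and its estimate depends on the added constant. Without it the family had 15 members higher of 34 and the SPRY class 8 of 16.

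Trim12c had 4.07, 4.12 and 4.403 FPKM in sgUba6 libraries, against 3.31, 2.12 and 2.87 FPKM in sgCtrl libraries (log2 fold change 0.54, SE 0.14, adjusted p = 0.0173). Without sgUba6 library 3 the adjusted p of Trim12c was 0.0556. Trim34b had 1.203, 1.32 and 1.43 FPKM in sgUba6 libraries, against 0.855, 0.701 and 0.645 FPKM in sgCtrl libraries (log2 fold change 0.56, SE 0.11, adjusted p = 0.00572). Its near-copy Trim34a, given per library after its values were seen, had 0.826, 1.11 and 1.13 FPKM in sgUba6 libraries, against 0.732, 0.675 and 0.618 FPKM in sgCtrl libraries (log2 fold change 0.37, SE 0.12, adjusted p = 0.0415). The Trim34a call was lost without any single library except sgUba6 library 1, with adjusted p between 0.0679 and 0.120. Trim34a and Trim34b share 1827 bases at 98.7% identity, so how reads were divided between them is uncertain, but their sum was 2.03, 2.43 and 2.56 FPKM in sgUba6 libraries and 1.59, 1.38 and 1.26 FPKM in sgCtrl libraries, with no overlap. Trim12c likewise shares 2458 bases at 95.04% identity with Trim5, which was nearly silent, and 981 bases at 96.53% with Trim12a, which was not analysed. Trim30a shares 301 bases at 97.7% with Trim30d, which stayed below the filter.

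**Figure D3:**
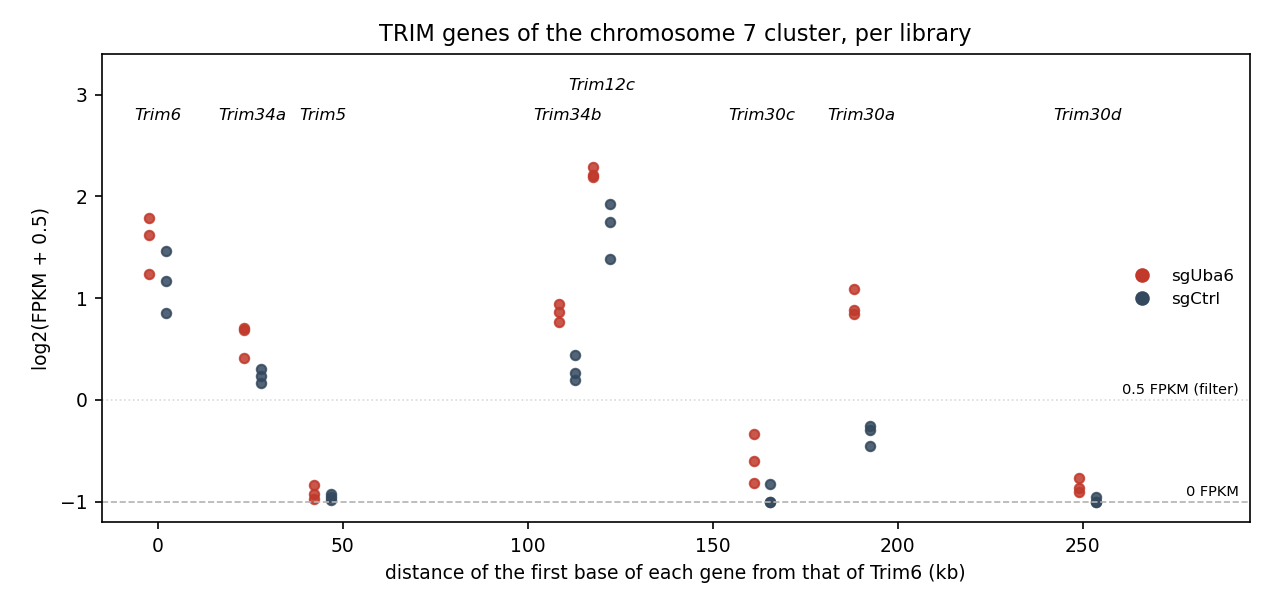
The x axis gives the distance in kb of each gene's first base from that of Trim6, and the y axis log2(FPKM + 0.5) in each library, with sgUba6 in red to the left of sgCtrl in dark blue for each of the 8 analysed genes of the chromosome 7 cluster. The dotted line is the filter of 0.5 FPKM and the dashed line 0 FPKM. Trim30a lies above the filter in the 3 sgUba6 libraries and below it in the 3 sgCtrl libraries, and Trim5, Trim30c and Trim30d lie below it throughout.

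RefSeq promoter windows, from 250 bases before to 50 after a start site on GRCm38.p6, were searched for the interferon-type element on both strands, written as GAAA, any 2 bases and GAAA, since many of the genes above are known interferon targets. The letters were found in 3.443% of 32851 promoters, or 3.993% of genes, and in 8 of the 37 members with a promoter in the table (21.62%). The 8 were Trim12c, Trim21, Trim30a and Trim34a, which were higher, Trim2, which was lower, Trim26, which did not pass the test, and Trim5 and Trim30d, which were not tested. Trim30a and Trim30d share sequence, as do Trim12c and Trim5, and each was counted as a separate gene. For 40 of the 50 promoters of members, the bases after the start site were found in a GENCODE M21 transcript of the gene. A window of each of the 8 follows on the strand of the gene, with the match in capitals, since these letters are what the 8 share. Trim30a has a match at a second start site, not printed.
Trim30a, chr7:104465210-104465239, minus strand: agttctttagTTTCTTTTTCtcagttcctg
Trim30d, chr7:104507871-104507900, minus strand: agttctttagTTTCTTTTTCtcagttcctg
Trim12c, chr7:104353359-104353388, minus strand: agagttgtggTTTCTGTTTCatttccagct
Trim5, chr7:104288136-104288165, minus strand: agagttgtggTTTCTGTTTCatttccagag
Trim34a, chr7:104244457-104244486, plus strand: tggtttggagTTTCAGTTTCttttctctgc
Trim21, chr7:102565447-102565476, minus strand: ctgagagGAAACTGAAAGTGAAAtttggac
Trim26, chr17:36836979-36837008, plus strand: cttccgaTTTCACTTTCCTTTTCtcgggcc
Trim2, chr3:84212791-84212820, minus strand: tcagctttggTTTCCTTTTCtctaagacag

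The Trim30a and Trim30d windows are identical, and those of Trim12c and Trim5 carry the same match, yet Trim30d and Trim5 stayed below the filter where Trim30a and Trim12c were expressed and higher in sgUba6. In the Trim21 and Trim26 windows 2 matches overlap. A second element, TTCNNNGAA, the core letters of STAT binding sites, was in 8.298% of all promoters, or 9.554% of genes, and in 3 of the 37 members (8.108%). These were Trim30c, which was not tested, Trim45, which did not pass the test, and Trim46, which was lower, and the element overlapped none of the printed matches. A match is a run of letters and not a measured site.

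Outside the interferon-linked list the SPRY members moved both ways, and the clearest pair was Trim47 and Trim65, neighbours on the minus strand of chromosome 11. Trim47 (chr11:116105752-116127210) had 25.9, 24.4 and 24.1 FPKM in sgUba6 libraries, against 17.1, 16.2 and 13.9 FPKM in sgCtrl libraries (log2 fold change 0.64, SE 0.08, adjusted p = 0.000793). Trim65, which activates the RNA sensor MDA5, had 3.22, 3.10 and 3.29 FPKM in sgUba6 libraries, against 5.50, 5.68 and 5.10 FPKM in sgCtrl libraries (chr11:116121846-116131128, log2 fold change -0.68, SE 0.07, adjusted p = 0.000352). The neighbours thus changed in opposite directions, and the ratio of Trim65 to Trim47 FPKM was 0.124 to 0.137 in sgUba6 and 0.322 to 0.367 in sgCtrl. They share 225 exon bases on the same strand, 8.23% of the exon length of Trim47 and 3.83% of that of Trim65. Trim7, which binds glycogenin, had 6.64, 6.12 and 8.23 FPKM in sgUba6 libraries, against 5.15, 4.79 and 3.98 FPKM in sgCtrl libraries (log2 fold change 0.54, SE 0.13, adjusted p = 0.0135). Its neighbour Trim41 had 16.3, 15.6 and 14.9 FPKM in sgUba6 libraries, against 13.2, 13.7 and 13.2 FPKM in sgCtrl libraries, a smaller rise of 0.22 on the log2 scale (SE 0.05, adjusted p = 0.0137). The exons of Trim41 share 31 bases, 0.883% of their length, with Rack1 on the opposite strand. Rack1 averaged 777 FPKM in sgUba6 and 739 FPKM in sgCtrl, so its reads may not be separable from those of Trim41 there.

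Members without a RING finger or without a C-terminal domain were higher where they passed the test. Trim44, which has a ubiquitin-protease-type zinc finger in place of the RING, had 28.1, 28.5 and 28.2 FPKM in sgUba6 libraries, against 19.2, 18.7 and 20.1 FPKM in sgCtrl libraries, among the tightest separations in the family (chr2:102300119-102407828, log2 fold change 0.54, SE 0.04, adjusted p = 0.000126). Trim8, a regulator of cytokine signalling, had 33.5, 32.9 and 32.7 FPKM in sgUba6 libraries, against 29.5, 28.5 and 26.3 FPKM in sgCtrl libraries (log2 fold change 0.23, SE 0.05, adjusted p = 0.00993). Trim16, also without a RING finger and known in the response to damaged lysosomes, averaged 9.79 FPKM in sgUba6 and 10.4 FPKM in sgCtrl, and the interval of its log2 fold change, -0.40 to 0.26, spans changes either way. In the NHL class, Trim32, a ligase mutated in a limb-girdle muscular dystrophy, averaged 14.7 ± 0.675 FPKM in sgUba6 and 10.7 ± 0.514 FPKM in sgCtrl (SD, n = 3 each, log2 fold change 0.44, adjusted p = 0.00111). Trim3, known from neurons, averaged 15.8 ± 0.226 FPKM in sgUba6 and 11.9 ± 0.799 FPKM in sgCtrl (log2 fold change 0.40, adjusted p = 0.0018), while Trim2, its closest relative, was lower and is given with the genes of chromosome 3.

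**Figure D4:**
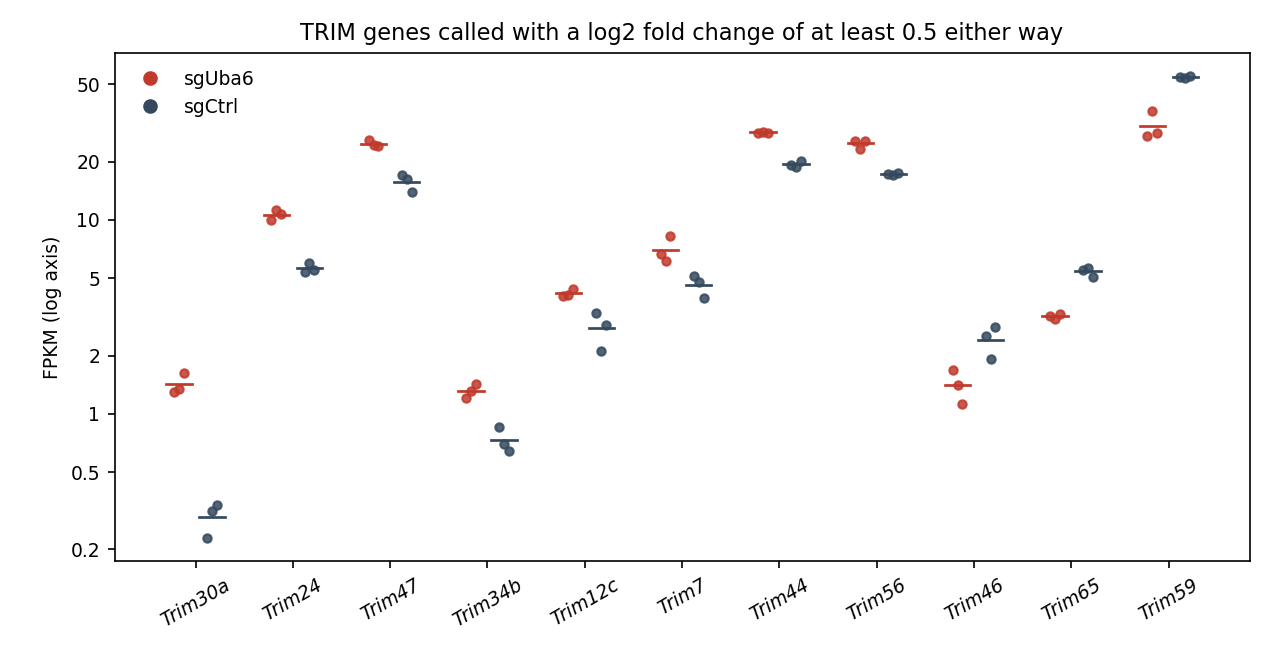
The y axis gives FPKM on a log axis in each library, with sgUba6 in red to the left of sgCtrl in dark blue and the mean as a bar, for the 11 called TRIM genes with a log2 fold change of at least 0.5 either way, ordered by fold change. The groups do not overlap in any of the 11, and 3 of them (Trim46, Trim65 and Trim59) are lower in sgUba6.

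The 7 lower members were Trim59, Trim65, Trim46, Trim35, Trim33, Trim2 and Trim37, and 4 of them lie on chromosome 3. Trim59, a membrane-anchored RING protein, was the second most abundant TRIM transcript of the control cells and fell most (chr3:69035288-69044755), with 27.1, 36.5 and 27.97 FPKM in sgUba6 libraries, against 54.9, 54.1 and 55.3 FPKM in sgCtrl libraries (log2 fold change -0.85, SE 0.11, adjusted p = 0.000837). Library 2 of sgUba6 stood above the other sgUba6 libraries and still well below the controls. Trim46, which organises microtubules of the axon initial segment, had 1.68, 1.41 and 1.12 FPKM in sgUba6 libraries, against 2.53, 1.91 and 2.80 FPKM in sgCtrl libraries (log2 fold change -0.61, SE 0.16, adjusted p = 0.0176). The Trim46 call was lost without sgUba6 library 3 (adjusted p = 0.0527), sgCtrl library 1 (0.0547) or sgCtrl library 3 (0.0558). Its exons share 239 bases with Krtcap2 on the opposite strand, which was lower by a like amount (16.7 FPKM in sgUba6 and 25.7 FPKM in sgCtrl, log2 fold change -0.61). Trim2, a neuronal ligase of the NHL class, averaged 3.98 ± 0.154 FPKM in sgUba6 and 5.11 ± 0.525 FPKM in sgCtrl (SD, n = 3 each, log2 fold change -0.32, adjusted p = 0.0207), and its call was lost without sgUba6 library 1 (0.0601), sgUba6 library 3 (0.0617) or sgCtrl library 1 (0.053).

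Chromosome 3 as a whole was lower in the sgUba6 libraries. Of its 592 tested genes 59.97% were lower and 9.122% higher, with a median log2 fold change of -0.39, against 20.81% lower, 25.52% higher and a median of 0.02 over the 11598 tested genes of all other chromosomes. All 5 tested members on chromosome 3 had negative log2 fold changes, 4 of them called, and the fifth, Trim45, had -0.51 with an interval of -1.17 to 0.16. The tested genes that start within 5 Mb had median log2 fold changes of -0.34 around Trim33 (itself -0.37), -0.31 around Trim2 (-0.32), -0.35 around Trim46 (-0.61), -0.62 around Trim59 (-0.85) and -0.30 around Trim45 (-0.51). For all 5 members the 95% interval of the member contained the median of its neighbours. Setdb1 is on chromosome 3 too. Cbx5 is on chromosome 15, where 39.63% of 487 tested genes were lower and 14.78% higher, with a median log2 fold change of -0.16. Atf7ip, which was higher, is on chromosome 6, where 32.28% of 570 tested genes were higher and 13.68% lower, with a median of 0.11. Leaving chromosome 3 aside, 16 tested members were higher, 3 lower and 11 did not pass the test, with a median log2 fold change of 0.29. Whether the level of a member and the shift of its chromosome have the same origin was not tested, and the files hold no measure of DNA copies.

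Of the 3 lower members on other chromosomes, Trim65 is described above. Trim35 (chr14:66297031-66311424) had 39.4, 38.9 and 38.6 FPKM in sgUba6 libraries, against 51.8, 52.7 and 51.1 FPKM in sgCtrl libraries, with very little spread within a group (log2 fold change -0.41, SE 0.03, adjusted p = 0.000153). Chromosome 14 also ran low, with 46.31% of its 406 tested genes lower, 9.852% higher and a median log2 fold change of -0.24, and the 60 tested neighbours of Trim35 within 5 Mb had a median of -0.19. Trim37, a MATH-domain ligase that limits centrosome assembly, had 24.6, 25.2 and 25.4 FPKM in sgUba6 libraries, against 30.18, 29.2 and 30.7 FPKM in sgCtrl libraries (log2 fold change -0.25, SE 0.04, adjusted p = 0.00247). Here the surroundings did not run low, since the 78 tested neighbours of Trim37 on chromosome 11 had a median of 0.01, and those of Trim65, on the same chromosome, also had 0.01.

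The same reading can be given for the members that were higher. The 45 tested neighbours of Trim24 on chromosome 6 had a median log2 fold change of 0.20, with 44.44% higher and 0 lower. Those of Trim32 had 0.27, those of Trim3 0.22, and those of Trim30a, Trim12c and Trim34b 0.14. Of the 16 higher members, 12 had a 95% interval above the median of their neighbours, and in Trim41 (0.12), Trim14 (0.15), Trim21 (0.13) and Trim34a (0.14) the interval contained that median. The 16 were picked for passing as higher, so their intervals lay above 0 by that choice. The count of 12 therefore cannot show that they left their surroundings, and it includes Trim30a, which passed the filter only through sgUba6 libraries. Trim25, Trim44, Trim8 and Trim47 were higher while their neighbours had medians of -0.03, -0.10, -0.09 and 0.01. The window of 5 Mb was chosen after the chromosome 3 values were seen.

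Among the 12 members that did not pass the test, the intervals were narrow for some and wide for others. Trim27, a SPRY ligase first found fused to RET, had 32.5, 32.2 and 33.1 FPKM in sgUba6 libraries, against 32.4, 32.9 and 28.9 FPKM in sgCtrl libraries (log2 fold change 0.06, interval -0.08 to 0.19). Trim26 and Trim39, given per library after their values were seen, each had a library far from its partners. Trim26 had 10.5, 10.3 and 12.1 FPKM in sgUba6 libraries, against 8.10, 8.30 and 17.7 FPKM in sgCtrl libraries, and its log2 fold change of 0.04 (adjusted p = 0.921) became 0.40 (adjusted p = 0.0134) without sgCtrl library 3. Trim39 had 5.13, 8.85 and 4.58 FPKM in sgUba6 libraries, against 5.02, 5.75 and 9.82 FPKM in sgCtrl libraries, so its interval ran from -0.85 to 0.58. Trim23, which carries an ARF domain, had a log2 fold change of 0.14 and Trim36 of the COS-box class 0.26. In both every sgUba6 library lay above every sgCtrl library, by a very small margin, without passing the test. The lowest sgUba6 and highest sgCtrl values were 12.48 and 12.43 FPKM in Trim23, and 0.946 and 0.943 FPKM in Trim36. Trim6 (0.39), Trim68 (0.16), Trim13 (0.15) and Trim11 (0.08) had intervals that include 0.

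The order of abundance within the family was also rearranged. By mean FPKM, which is per length and can be set between genes, sgUba6 cells ran Trim28, Trim35, Trim25, Trim8, Trim27, Trim59, Trim44, Trim37, Trim56 and Trim47, and sgCtrl cells ran Trim28, Trim59, Trim35, Trim27, Trim37, Trim25, Trim8, Trim33, Trim44 and Trim56. In sgUba6, Trim35 and Trim25 were not separated by their libraries, nor were Trim8 and Trim27, nor was Trim59 from Trim8, Trim27 or Trim44, nor were Trim37, Trim56 and Trim47 from each other. In sgCtrl, Trim8 overlapped Trim27, Trim37 and Trim25, and Trim27 overlapped Trim37, while Trim59 and Trim35 were apart. Trim28 held the first place in both groups and 19.8 to 20.8% of all TRIM FPKM in sgUba6, against 20.8 to 21.2% in sgCtrl. Of the 18 members that averaged 10 FPKM or more, 9 were higher and 4 lower (72.22%), where 52.29% of the 6454 genes at that level were called.

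**Figure D5:**
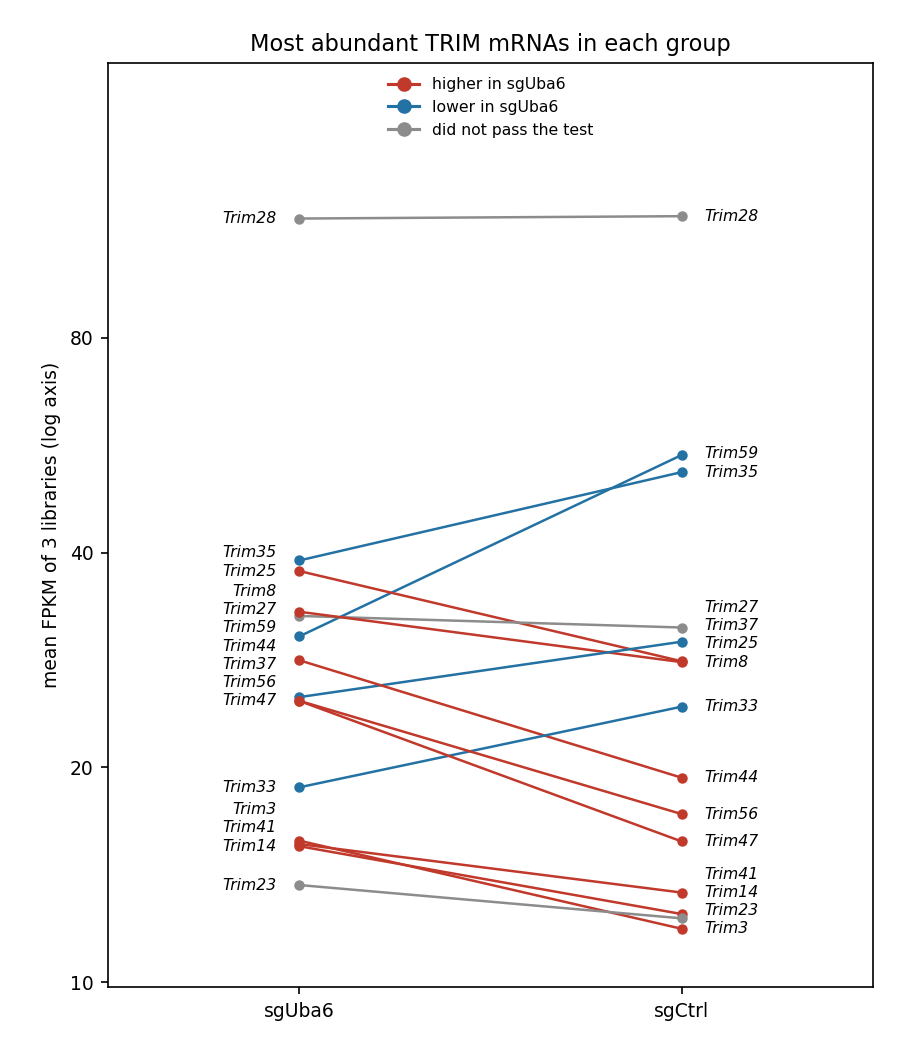
The y axis gives the mean FPKM of 3 libraries on a log axis for the most abundant TRIM genes, with sgUba6 on the left and sgCtrl on the right, and a line joins each gene's means (red for higher in sgUba6, blue for lower, grey for genes that did not pass the test). Trim28 is level at the top, Trim59 and Trim35 are lower in sgUba6, and Trim25, Trim44, Trim56 and Trim47 are higher.

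The 13 members that were not tested were Trim30c, Trim62, Trim29, Trim54, Trim69, Trim72, Trim30d, Trim5, Trim40, Trim66, Trim71, Trim17 and Trim43a. None exceeded 0.290 FPKM in any library, the highest being Trim30c in an sgUba6 library. By the same range criterion 4 of them had sgUba6 libraries above, 2 below and 7 overlapped, at levels too low to read as a change. Trim17 was listed at 0 in every sgUba6 library and Trim43a at 0 in every sgCtrl library. The muscle-linked Trim54 and Trim72, the stem-cell gene Trim71 and the basal epithelial gene Trim29 are in this set.

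Beside the 47.4% of all genes tested that were called, 2 further lists of genes that work with the ligases were counted. Of 12 E2 genes (16.7% called), among them Ube2v1 and Ube2v2, inactive partners of the E2 Ube2n, and Ube2l6, best known as the E2 of the modifier ISG15, 10 did not pass the test, Ube2e1 was lower (46.6 FPKM in sgUba6 and 59.8 FPKM in sgCtrl, log2 fold change -0.36, SE 0.04, adjusted p = 0.000482) and Ube2d1 was higher (31.0 FPKM in sgUba6 and 27.2 FPKM in sgCtrl, log2 fold change 0.19, SE 0.05, adjusted p = 0.0287). Ube2e1 lies on chromosome 14, which ran low as a whole, as given above. Of 13 signalling proteins that TRIM ligases modify or assist, 3 were higher, 1 lower and 9 did not pass the test (30.8% called). The 3 higher were the RNA sensors Ddx58, which encodes RIG-I (24.2 FPKM in sgUba6 and 18.9 FPKM in sgCtrl, log2 fold change 0.34, adjusted p = 0.00571), and Ifih1, which encodes MDA5 (log2 fold change 0.31), and the transcription factor Irf3 (0.26). The lower gene was Trp53, the p53 tumour suppressor (14.6 FPKM in sgUba6 and 20.6 FPKM in sgCtrl, log2 fold change -0.49, SE 0.11, adjusted p = 0.00959). Of 3 TRIM proteins filed under other symbols, Pml, the organiser of nuclear bodies, was higher, with 31.9, 20.7 and 31.9 FPKM in sgUba6 libraries, against 15.9, 18.9 and 16.0 FPKM in sgCtrl libraries (log2 fold change 0.69, SE 0.17, adjusted p = 0.0148), and the others did not pass the test.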

How the data were processed

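RNA-seq values of 6 libraries (3 sgUba6, 3 sgCtrl) were analysed. The authors deposited FPKM per gene and library. Their methods name Cutadapt, HISAT2 to GRCm38, StringTie and Cuffdiff, and the submitters' processing notes name CASAVA 1.8, Trimmomatic, HISAT2, RSEM and edgeR, so which pipeline made the table is not known. The deposited ratio (fold change) and the authors' p-value and q-value columns hold their own comparison and were not used. FPKM keep no depth, so no count test or interval on counts was run. Genes with at least 0.5 FPKM in 3 of 6 libraries were kept, 0.5 was added, and log2 values were tested with limma 3.58.1 (trend, both groups in the fit, two-sided, R 4.3.3) with Benjamini-Hochberg adjustment over 12190 genes at 0.05. The script was tested on simulated data with 50 genes changed at each size. It recovered 26% of changes of 1.25-fold, 62% of 1.5-fold, 86% of 2-fold and 98% of 4-fold, and 6.21% of its calls were false. A member that did not pass the test may thus still have changed. With 3 against 3 an exact permutation test cannot go below 0.1. Shared exons came from GENCODE M21, shared sequence from blastn 2.17.0 (at least 200 bases at 95% identity), and promoters from RefSeq. Of 68 protein-coding TRIM genes in GENCODE M21, 20 were not analysed here. Members and lists were chosen with earlier results of these data known. Per-library values were given for called members with a log2 fold change of at least 0.5 and then for the most abundant, up to 20. Alternatives were other constants, filters, scalings, a replicate block and leaving out each library.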

Additional observations from a re-analysis of the deposited data

How the results depend on the processing

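Over 14 alternative settings the number of TRIM genes higher in sgUba6 ran from 12 to 16 and the number lower from 5 to 7. With 1 library left out the counts were 12 to 15 higher and 5 to 7 lower, and over all genes tested 2526 to 2702 higher and 2330 to 2514 lower. Of the 23 called members, 17 to 23 remained called under each alternative, and the fewest remained without sgUba6 library 3. The replicate block gave 14 higher and 6 lower members, and Trim14 (adjusted p = 0.102), Trim2 (0.0517) and Trim34a (0.0885) lost their calls. Libraries of the same number did not deviate together (correlations 0.016, -0.057 and -0.022), so the numbers were not used to pair samples. Trim14 also missed the threshold with no filter (adjusted p = 0.0699), with median-of-ratios scaling (0.0559) and without a trend (0.0617), Trim34a with no filter (0.0624) and with quantile normalization (0.269), and Trim21 with quantile normalization (0.0776). The log2 fold change of Trim28 was 0.056 with quantile normalization, and with 1 library left out it ran from -0.024 to 0.0064. Over the same omissions Trim27 ran from -0.0026 to 0.090, Trim16 from -0.15 to 0.078, Trim26 from -0.15 to 0.40 and Trim39 from -0.41 to 0.13. Trim30a kept its call throughout, with a log2 fold change of 0.90 to 1.95 that moved with the added constant. A filter of 1 FPKM left 33 members tested. FPKM give no depth, so the precision of the low genes is not known beyond the spread of 3 libraries.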
